A study of Triticum polonicum with 8 samples.

Results

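The genes described here are the 200 whose transcript level varied least over the 8 root libraries of dwarf Polish wheat seedlings, among genes that were well expressed. They were chosen on measured values. Each count was divided by the column total and multiplied by 1000000 (CPM), and each library was then divided by its median-of-ratios factor, which is the median over 62270 genes with no zero count of the gene's CPM relative to its mean over the libraries on a log scale. Among the 11612 genes with a mean CPM of 20 or more before that scaling, the 200 with the smallest standard deviation (SD) of log2 scaled CPM over the 8 libraries were taken, out of 124856 genes in all. Another 19 of the 11612 genes had a count of 0 in some library and so no log2 value there, which left 11593 well expressed genes to compare the 200 with. Because the spread chose the genes, their small spread is a description and was not tested.

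Dwarf Polish wheat (Triticum polonicum) is a tetraploid wheat, with A and B subgenomes in its nucleus. Roots of seedlings aged 4 weeks were sampled after 1 week of treatment with 1 of 8 nutrient solutions, and the series title puts the question as how calcium and potassium go with the interaction of cadmium and zinc. The groups were raised calcium and potassium nitrate with both metals (N2_Cd_Zn), with Cd (N2_Cd), with Zn (N2_Zn) and with no added metal (N2), and basal calcium and potassium nitrate with both metals (N0_Cd_Zn), with Cd (N0_Cd), with Zn (N0_Zn) and with no added metal (N0). Calcium nitrate was supplied at 8 mM in the raised and 4 mM in the basal solution, and potassium nitrate at 10 mM and 5 mM. Cd was given as 80 µM CdCl2 and Zn as 500 µM on a basal 5 µM. Every group was the same cultivar, tissue and age, and nitrate was raised together with Ca and K, so their parts cannot be told apart. The labels state 3 biological replicates per treatment, but each treatment is 1 column of counts, and the sources used here do not say whether replicates were pooled into it. A difference between treatments is thus a difference between single libraries with no replicate check, and no p-value is given for it.

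Genes whose transcripts hold a steady share of the messenger RNA pool are used as internal references, because an RNA measurement is relative: a transcript can only be said to have changed against something taken as constant. Genes for general cell functions, such as translation, protein turnover, the cytoskeleton and vesicle traffic, are the usual candidates in plants, and which of them hold steady depends on the tissue and the stress. Cadmium and excess zinc are taken up by roots through transporters of nutrient metals and are known to induce chelation and oxidative stress responses, so metal treatment is a hard case for the choice of a reference. In a polyploid wheat most genes exist as near-identical copies on the subgenomes, and reads shared between such copies make the value of any single copy uncertain.

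The identifiers in the files are those of TGACv1 gene models of bread wheat, in which a code such as 5BL names the long arm of chromosome 5B, 3B a whole chromosome and U a scaffold with no assigned arm, or they are serial numbers with no position. The files do not pair them with gene names or products, so neither the roles of the 200 genes nor the root identity of the samples could be checked against known genes. Library totals ran from 20000875 to 25241789 counts, and the median-of-ratios factors lay between 1.17 in N2 and 0.875 in N0_Zn. Each of the 200 genes had between 359 and 10317 counts in every library. In whole roots, a lower value in fewer cells and a lower value per cell cannot be told apart.

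The steadiest gene of all was Novel04551, a locus known by serial number with a deposited mean of 27.1 FPKM (fragments per kilobase of gene length and per 1000000 counts) and a length of 1705 bp. Its scaled CPM was 46.3 in N2_Cd_Zn, 44.9 in N2_Cd, 43.3 in N2_Zn, 47.1 in N2, 44.7 in N0_Cd_Zn, 46.9 in N0_Cd, 44.5 in N0_Zn and 45.4 in N0. With this scaling the values lay within 1.09-fold of each other, with no visible order by metal or by Ca/K supply. Without scaling they ran from 38.9 CPM in N0_Zn to 55.1 CPM in N2. The SD of the scaled values, 0.041 on the log2 scale, was about the 0.044 that read counting alone would give at this depth. TRIAE_CS42_5BL_TGACv1_407192_AA1354220, on arm 5BL and 3092 bp long, followed with 31.4 in N2_Cd_Zn, 33.7 in N2_Cd, 31.8 in N2_Zn, 32.6 in N2, 30.7 in N0_Cd_Zn, 32.2 in N0_Cd, 32.3 in N0_Zn and 31.2 in N0. Its SD was 0.042, and its highest library stood 1.10-fold above its lowest.

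The scatter of these genes can be set against counting error through a dispersion index, the mean squared deviation of the counts from their expected values divided by those values, which is 1 for counting error alone. It was 0.90 for Novel04551 and 0.635 for the 5BL gene, and these were the only 2 of the 11593 well expressed genes at 1 or less. The other 8 of the 10 genes with the smallest SD had indices up to 2.48. Over all 200 genes the index had a median of 5.18 and a range from 0.635 to 53.7, against a median of 104 over the well expressed genes. The 200 genes thus varied by more than counting error, with a median SD 2.27 times the counting SD, against 10.3 times over the well expressed genes.

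TRIAE_CS42_U_TGACv1_645189_AA2143440 was the steadiest gene with the code U, with 36.5 in N2_Cd_Zn, 40.0 in N2_Cd, 40.2 in N2_Zn, 39.3 in N2, 36.4 in N0_Cd_Zn, 38.7 in N0_Cd, 38.3 in N0_Zn and 36.8 in N0. With this scaling its lowest values, in both libraries that had Cd and Zn together, differed from its highest by 1.11-fold. Without scaling it was lowest in N0_Zn, at 33.5 CPM. TRIAE_CS42_3B_TGACv1_223247_AA0778920 on chromosome 3B had 31.3 in N2_Cd_Zn, 29.8 in N2_Cd, 32.4 in N2_Zn, 34.6 in N2, 32.9 in N0_Cd_Zn, 32.8 in N0_Cd, 32.0 in N0_Zn and 31.7 in N0. Here N2_Cd was lowest and N2 highest, 1.16-fold apart.

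TRIAE_CS42_6AL_TGACv1_472303_AA1520640 on arm 6AL had 27.4 in N2_Cd_Zn, 29.1 in N2_Cd, 30.8 in N2_Zn, 30.8 in N2, 28.9 in N0_Cd_Zn, 27.2 in N0_Cd, 29.1 in N0_Zn and 29.6 in N0. Both N2_Zn and N2 were at its upper end, and both N2_Cd_Zn and N0_Cd at its lower end. TRIAE_CS42_3B_TGACv1_227586_AA0823940, also on 3B and at 1061 bp the shortest of the 10, had 31.7 in N2_Cd_Zn, 31.6 in N2_Cd, 34.1 in N2_Zn, 30.4 in N2, 29.5 in N0_Cd_Zn, 33.1 in N0_Cd, 32.5 in N0_Zn and 30.5 in N0. Its highest library was N2_Zn. TRIAE_CS42_5AL_TGACv1_378344_AA1252760 on 5AL had 27.6 in N2_Cd_Zn, 30.2 in N2_Cd, 29.5 in N2_Zn, 32.2 in N2, 28.7 in N0_Cd_Zn, 27.6 in N0_Cd, 29.6 in N0_Zn and 28.0 in N0, with N2 alone above 31 CPM.

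The remaining genes of the 10 were TRIAE_CS42_6AS_TGACv1_485576_AA1547910 on 6AS, TRIAE_CS42_1BL_TGACv1_031902_AA0122450 on 1BL and TRIAE_CS42_6AL_TGACv1_472958_AA1527550 on 6AL. The 6AS gene had 38.3 in N2_Cd_Zn, 42.1 in N2_Cd, 43.8 in N2_Zn, 42.2 in N2, 39.3 in N0_Cd_Zn, 44.2 in N0_Cd, 41.3 in N0_Zn and 43.7 in N0. With this scaling its 2 lowest libraries were those with both metals. The 1BL gene was highest at 32.5 in N2_Cd and lowest at 28.0 in N0, and the 6AL gene was lowest at 26.0 in N2_Cd and highest at 30.5 in N0, so that these 2 genes were at opposite ends of their narrow ranges in the same libraries. The 10 genes had mean scaled CPM between 28.0 and 45.4 and lengths between 1061 and 3681 bp, and each had an SD of at most 0.081. Without scaling, each of the 10 genes was highest in N2 and lowest in N0_Zn, so the order of libraries given for them rests on the scaling.

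**Figure D1:**
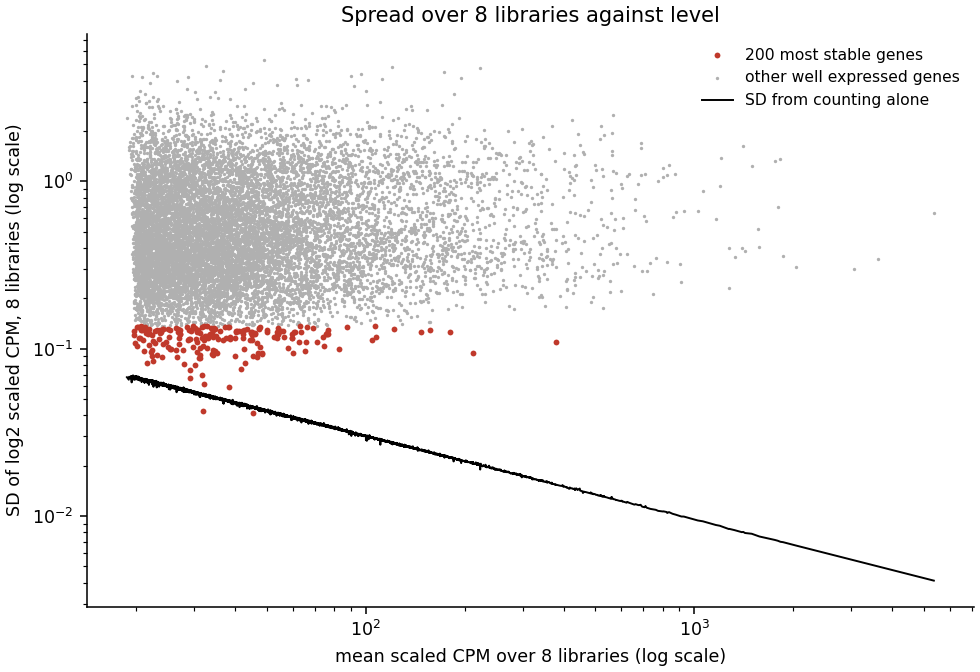
Spread against level for 11593 well expressed genes: the SD of log2 scaled CPM over 8 libraries (vertical, log scale) against mean scaled CPM (horizontal, log scale), with the 200 chosen genes in red, the others in grey and the SD from counting alone as a black line. The red points fill the band below 0.137, touch the counting line only between 30 and 50 CPM, and thin out above 100 CPM.

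The 200 genes were mostly of moderate abundance. Their mean scaled CPM had a median of 33.6 and a range from 19.7 to 379, against a median of 36.5 and a maximum of 5354 over the well expressed genes. Between 30 and 50 mean CPM, 89 of 3678 genes were chosen (2.42%), and between 20 and 30 CPM, 66 of 4064 (1.62%). From 50 to 100 CPM the share was 36 of 2431 (1.48%), from 100 to 200 CPM 7 of 941 (0.744%), and at 200 CPM or more 2 of 479 (0.418%). The median SD of all genes in these classes went the other way, from 0.46 and 0.44 in the lower 2 classes to 0.53 in the highest, although counting error was smaller there. Only 1 of the 200 genes was among the 200 most abundant genes of the series, whose SD had a median of 0.50.

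That gene, TRIAE_CS42_2BS_TGACv1_146875_AA0474500 on arm 2BS, was the most abundant of the 200, with a deposited mean of 347 FPKM. It had 371 in N2_Cd_Zn, 377 in N2_Cd, 349 in N2_Zn, 331 in N2, 408 in N0_Cd_Zn, 414 in N0_Cd, 395 in N0_Zn and 384 in N0 scaled CPM. All 4 raised Ca/K libraries stood below all 4 basal ones with this scaling and with TMM scaling (trimmed mean of M values, edgeR), but not without scaling, where it had 347 CPM in N2_Zn and 346 in N0_Zn, nor with factors from the well expressed genes alone. Its dispersion index of 53.7 was the largest of the 200. TRIAE_CS42_7BL_TGACv1_577272_AA1870850 on 7BL came next with 196 in N2_Cd_Zn, 201.9 in N2_Cd, 232 in N2_Zn, 216 in N2, 213 in N0_Cd_Zn, 218 in N0_Cd, 225 in N0_Zn and 194 in N0. Its lowest 2 values were those of N2_Cd_Zn and N0, treatments that share neither a metal nor a Ca/K level.

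The next 3 in abundance were TRIAE_CS42_4BL_TGACv1_322333_AA1070670 on 4BL, TRIAE_CS42_6AS_TGACv1_485764_AA1551640 on 6AS and TRIAE_CS42_2AS_TGACv1_114540_AA0367930 on 2AS. The 4BL gene had 186 in N2_Cd_Zn, 172 in N2_Cd, 206 in N2_Zn, 152 in N2, 179.8 in N0_Cd_Zn, 187 in N0_Cd, 189.7 in N0_Zn and 176 in N0. The 6AS gene had 154 in N2_Cd_Zn, 148 in N2_Cd, 188 in N2_Zn, 139.8 in N2, 155 in N0_Cd_Zn, 166 in N0_Cd, 157 in N0_Zn and 148 in N0. In both of these genes N2_Zn was highest and N2 lowest, 1.35-fold apart on each, but without scaling N0_Zn was lowest, at 166 CPM for the 4BL gene and 138 CPM for the 6AS gene. The 2AS gene, 5992 bp long, was lowest in N0_Cd_Zn at 126 and highest in N0_Cd at 164.

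At the edge of the choice the genes differed little from those left out. The last 2 genes inside, TRIAE_CS42_U_TGACv1_641849_AA2105710 and TRIAE_CS42_7AL_TGACv1_556520_AA1764580, had SDs of 0.136 and 0.137. The first 2 outside, TRIAE_CS42_4AS_TGACv1_306582_AA1010570 and TRIAE_CS42_2AS_TGACv1_112105_AA0330560, both had 0.137. TRIAE_CS42_7AL_TGACv1_556520_AA1764580 had 38.9 in N2_Cd_Zn, 32.5 in N2_Cd, 32.1 in N2_Zn, 32.9 in N2, 32.0 in N0_Cd_Zn, 28.2 in N0_Cd, 31.5 in N0_Zn and 29.4 in N0, and its N2_Cd_Zn value was the one that set it apart from the rest. Outside the 200, TRIAE_CS42_4AS_TGACv1_306582_AA1010570 had 54.4 in N2_Cd_Zn, the lowest of its 8 values, against 71.8 in N0_Zn, the highest. In all, 917 of the 11593 well expressed genes (7.91%) stayed within 5/4-fold of their own mean, a ratio of 5 to 4 either way, in every library, the 200 among them, so that the choice takes the inner part of a larger group.

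Every one of the 200 genes stayed within 5/4-fold of its own mean in all 8 libraries, and the ratio of its highest to its lowest library had a median of 1.27 and a maximum of 1.38. The same ratio had a median of 2.56 over the well expressed genes. The library farthest from a gene's own mean was N2_Zn for 48 of the 200 genes, with 37 of them above the mean. Of the 1343 well expressed genes that were farthest in N2_Zn, 979 were above the mean. Among the 200 genes the farthest library was N0_Cd_Zn for 33, N2 for 26, N0_Zn for 23 and N0 for 21. It was N2_Cd_Zn for 17, N2_Cd for 16 and N0_Cd for 16. Over all well expressed genes the order was another one: N0_Zn was farthest for 36.1% and N0_Cd_Zn for 21.5%, against 11.6% for N2_Zn. There N2 was farthest for 6.81%, N0 for 7.63%, N2_Cd_Zn for 5.27%, N2_Cd for 6.32% and N0_Cd for 4.83%. The rule used these values, so the counts describe the 200 genes with this scaling only.

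The largest departures that remained among the 200 were each in 1 library. TRIAE_CS42_4BS_TGACv1_328071_AA1082280 on 4BS stood at 148 scaled CPM in N2_Zn, against 127 in N2 and 111 to 124 in the other 6 libraries. TRIAE_CS42_2AL_TGACv1_092888_AA0266140 on 2AL had 84.0 in N2, and 63.1 to 74.1 elsewhere. TRIAE_CS42_4BS_TGACv1_328808_AA1093900 on 4BS had 57.8 in N0_Cd_Zn, and 42.0 to 48.9 elsewhere. In each of these 3 genes the library named was the highest of the 8 with this scaling. Without scaling the first 4BS gene was highest in N2, at 148.6 CPM against 147.7 in N2_Zn. The 2AL gene and the second 4BS gene kept their highest library.

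TRIAE_CS42_2BS_TGACv1_146441_AA0465130 on 2BS had 37.0 in N0_Zn, and 26.9 to 31.1 elsewhere. TRIAE_CS42_7AL_TGACv1_557577_AA1783430 on 7AL had 50.7 in N0, and 39.0 to 45.8 elsewhere. Novel09984, known by serial number, was low in N0_Cd at 16.2, and 18.9 to 21.5 elsewhere. The largest departure in N2_Cd was that of TRIAE_CS42_U_TGACv1_641849_AA2105710, with 28.0 there and 30.5 to 37.3 elsewhere, and the largest in N2_Cd_Zn that of TRIAE_CS42_7AL_TGACv1_556520_AA1764580. Without scaling the 2BS gene was highest in N2, at 36.3 CPM, and the U gene lowest in N0_Zn, at 26.7 CPM. Both 7AL genes and Novel09984 kept their highest or lowest library.

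**Figure D2:**
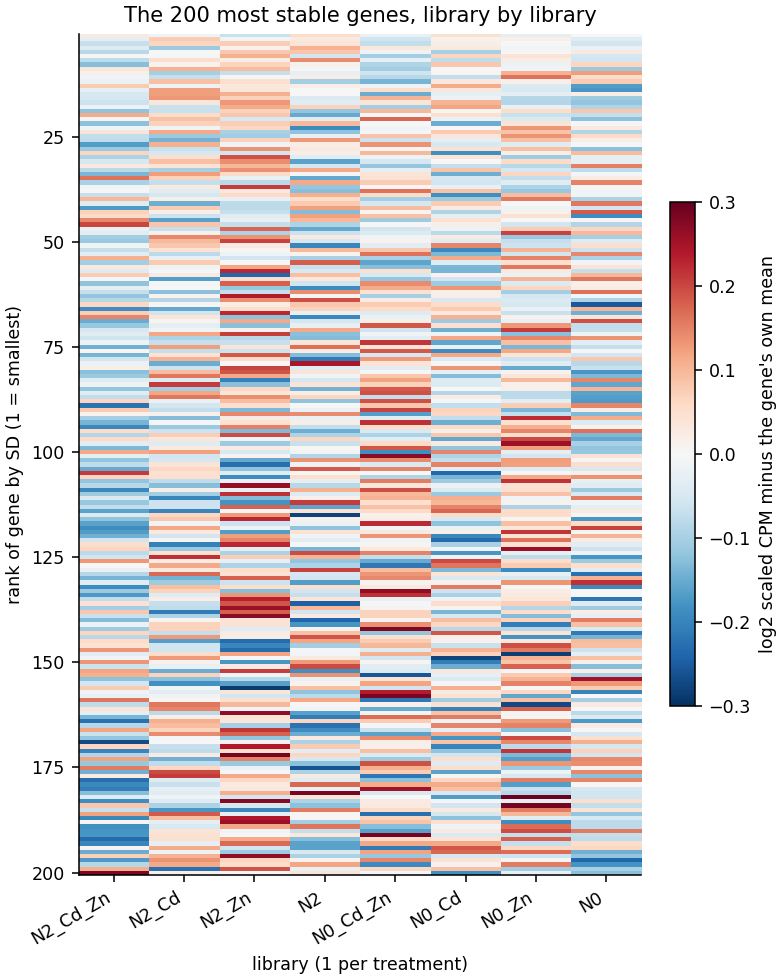
The 200 genes in order of their SD (vertical, rank 1 at the top) in 8 libraries (horizontal), coloured by log2 scaled CPM minus the gene's own mean. Colours deepen down the page by construction, no library is red or blue throughout, N2_Cd_Zn is blue more often than red and N2_Zn red more often than blue.

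Collectively the 200 genes had a median deviation from their own mean of at most 0.052 on the log2 scale in any library. It was -0.052 in N2_Cd_Zn, 0.00064 in N2_Cd, 0.032 in N2_Zn, -0.0076 in N2, 0.016 in N0_Cd_Zn, -0.0052 in N0_Cd, 0.015 in N0_Zn and -0.018 in N0. In N2_Cd_Zn 61 of the 200 genes were above their own mean, and in N2_Zn 118. The well expressed genes had medians of -0.037 in N2_Cd_Zn and 0.033 in N2_Zn. With TMM scaling the medians of the 200 genes became -0.015 in N2_Cd_Zn and 0.024 in N2_Zn. In the same order they were -0.0065 and 0.0074 with no scaling, and -0.011 and 0.0035 with factors from the well expressed genes. The well expressed genes as a whole were less level, with a median deviation of -0.13 in N2 and 0.12 in N0_Zn. The rule chose genes that are level under this scaling, so this contrast follows from the choice.

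**Figure D3:**
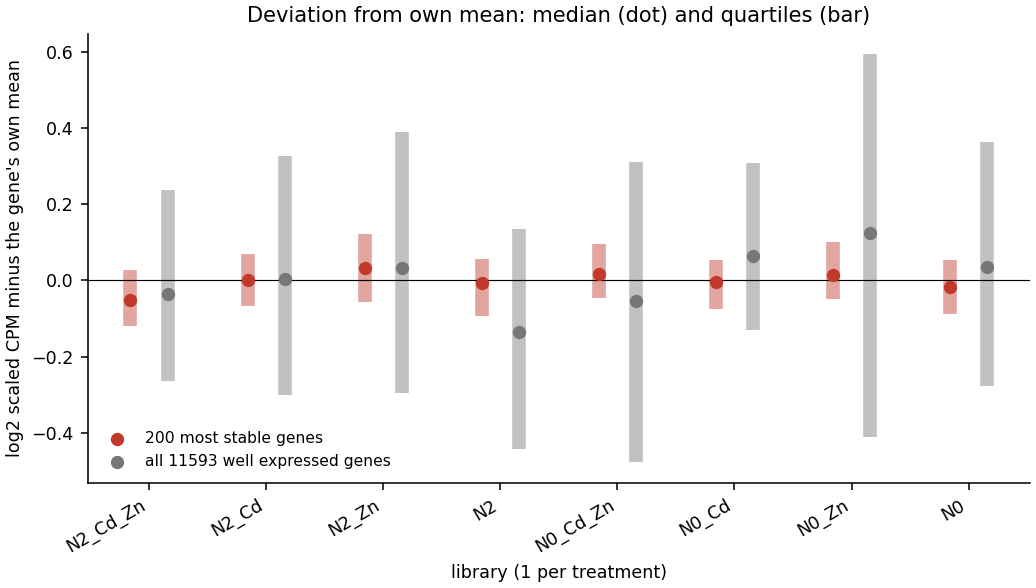
Deviation of log2 scaled CPM from each gene's own mean (vertical) in 8 libraries (horizontal), with the median as a dot and the span between the lower and upper quartile as a bar, for the 200 genes in red and all 11593 well expressed genes in grey. The red dots lie between -0.052 and 0.032, whereas the grey dots reach -0.13 in N2 and 0.12 in N0_Zn.

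How level the 200 genes look depends on the scaling. They held 0.880% of all counts in N2_Cd_Zn (exact 95% binomial interval 0.876% to 0.884%), 0.893% in N2_Cd (0.889% to 0.897%), 0.892% in N2_Zn (0.888% to 0.896%) and 1.00% in N2 (0.996% to 1.004%). In the basal libraries they held 0.925% in N0_Cd_Zn (0.921% to 0.929%), 0.868% in N0_Cd (0.865% to 0.872%), 0.775% in N0_Zn (0.771% to 0.778%) and 0.838% in N0 (0.834% to 0.842%). These intervals cover counting error only. The share was thus highest in N2 and lowest in N0_Zn, the libraries with the highest and lowest factor, and after division by the factor it ran only from 0.841% in N2_Cd_Zn to 0.896% in N2_Zn.

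Without any scaling, 113 of the 200 genes had their highest CPM in N2 and 111 their lowest in N0_Zn. The median ratio of N2 to N0_Zn was 1.31 unscaled and 0.978 scaled over the 200 genes. Over the well expressed genes it was 1.13 unscaled and 0.846 scaled. The factors rest on 62270 genes, most of them less abundant than the 200. With factors from the 11593 well expressed genes alone, which was tried after the data had been seen, the median deviation of the 200 genes became 0.13 in N2 and -0.10 in N0_Zn, and 101 of them were chosen again. With TMM scaling the medians stayed between -0.022 and 0.024, and 179 were chosen again. Without scaling 55 were chosen again. The order of libraries within a gene moved with the scaling too. Of the 24 chosen genes named here by rule, 23 had the same highest library and 21 the same lowest with TMM scaling, 12 and 6 with no scaling, and 13 and 14 with factors from the well expressed genes. Over all 200 genes these counts were 185 and 173 with TMM scaling, 96 and 80 with no scaling, and 116 and 108 with factors from the well expressed genes.

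A ratio between 2 genes of the same library needs no scaling. Over the 19900 pairs that the 200 genes form, the SD of the log2 ratio over the 8 libraries had a median of 0.16 and a range from 0.021 to 0.26, against a median of 0.80 over all pairs of well expressed genes. Since each of the 200 genes was chosen for a small SD, the small SD of their ratios follows from the rule. When the well expressed genes were ranked by the mean SD of their ratios to all others, the 200 genes had a median rank of 210.5 and a worst rank of 974 of 11593, and 97 of them were among the first 200.

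Libraries with and without Cd differed by less than 2-fold in all 200 genes, which follows from the rule. In N2_Cd_Zn against N2_Zn, 0 of the 200 genes were 2-fold or more apart, beside 10.5% of the well expressed genes, and 15 were 5/4-fold or more apart, beside 54.7%. Of these 15 genes 13 were lower with Cd; of the well expressed genes 29.4% were that much lower, which is 53.8% of those that differed. The direction rests on the scaling: TMM scaling gave 6 higher and 3 lower, and no scaling and factors from the well expressed genes each 8 higher and 2 lower. The median log2 ratio of -0.091, with this scaling the farthest from 0 in the 12 matched pairs, was -0.045 with TMM scaling, -0.020 with no scaling and -0.021 with factors from the well expressed genes, and with no scaling the farthest was 0.26 in N2 against N0. In N2_Cd against N2 the counts were 0, beside 12.3%, and 3, beside 45.7%. In N0_Cd_Zn against N0_Zn they were 0, beside 39.5%, and 12, beside 76.5%, and in N0_Cd against N0 they were 0, beside 13.3%, and 3, beside 53.5%. Among these 4 Cd pairs, the one that differed in the most well expressed genes, at basal Ca/K under Zn, had 12 differing genes of the 200, against 15 at raised Ca/K under Zn. That order too held with this scaling only, since TMM scaling gave 11 against 9, no scaling 65 against 10 and factors from the well expressed genes 39 against 10.

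Libraries with and without Zn likewise differed by less than 2-fold in all 200 genes. In N2_Cd_Zn against N2_Cd 0 genes were 2-fold or more apart, beside 15.4% of the well expressed genes, and 3 were 5/4-fold or more apart, beside 57.7%. In N2_Zn against N2 the counts were 0, beside 12.2%, and 20, beside 52.3%, with 15 of the 20 genes higher under Zn. Of the well expressed genes 39.2% were that much higher, which is 74.9% of those that differed, about the same as 15 of 20. The 4BL gene named above was the highest of the 20 at 1.35-fold. TMM scaling gave 9 higher and 5 lower, whereas no scaling gave 0 higher and 43 lower, and factors from the well expressed genes 0 higher and 25 lower. In N0_Cd_Zn against N0_Cd they were 0, beside 23.8%, and 14, beside 64.8%, and in N0_Zn against N0 they were 0, beside 15.9%, and 5, beside 54.3%, all 5 of them higher. Of the well expressed genes 31.2% were that much higher, which is 57.4% of those that differed. TMM scaling likewise gave 5 higher and 0 lower, no scaling 0 higher and 11 lower, and factors from the well expressed genes 0 higher and 6 lower.

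Between raised and basal calcium and potassium nitrate 0 genes were 2-fold or more apart in each of the 4 pairs. In N2_Cd_Zn against N0_Cd_Zn this stood beside 29.4% of the well expressed genes, and 11 of the 200 were 5/4-fold or more apart, beside 71.1%. In N2_Cd against N0_Cd the counts were 0, beside 18.4%, and 4, beside 57.9%. In N2_Zn against N0_Zn they were 0, beside 40.1%, and 18, beside 78.0%. In N2 against N0 they were 0, beside 26.7%, and 7, beside 67.8%, and 100 of the 200 genes were above and 100 below an equal level with this scaling, against 76 genes at 5/4-fold or more with no scaling, all of them higher in N2. These pairs share libraries with each other and with the Cd and Zn pairs, so they are not separate evidence.

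The sign of the small differences was also compared over the pairs. A gene with no response can also have the same sign in all 4 pairs. The shares below thus do not show that a difference recurs. Over the 4 pairs that differ in Ca/K alone, 24 of the 200 genes had the same sign in every pair (12%, with 7 higher and 17 lower at raised Ca/K), beside 32.6% of the well expressed genes (13.5% higher and 19.1% lower). The split turned round without scaling, with 32 higher and 3 lower, and with factors from the well expressed genes, with 17 and 5, whereas TMM scaling gave 10 and 14. Over the 4 Cd pairs 24 genes had the same sign in every pair (12%, with 7 higher and 17 lower with Cd), beside 6.72% of the well expressed genes (2.63% higher and 4.09% lower). TMM scaling gave 10 higher and 17 lower, no scaling 8 and 4, and factors from the well expressed genes 9 and 6. Over the 4 Zn pairs 12 genes did (6%, with 9 higher and 3 lower with Zn), beside 6.42% (4.33% higher and 2.09% lower). TMM scaling gave 10 higher and 2 lower, no scaling 0 and 18, and factors from the well expressed genes 7 and 10. The mean difference over the 4 pairs of a gene lay between -0.18 and 0.19 for Cd, between -0.13 and 0.19 for Zn and between -0.21 and 0.19 for Ca/K on the log2 scale. As the rule bounds each gene's spread, these values describe the 200 genes and test nothing.

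Libraries that took no part in a choice give a less circular view. When the rule was applied to 7 libraries and the 200 genes so chosen were looked up in the left-out library, their level there was set against their mean in the other 7. Within 5/4-fold of that mean were 174 of the 200 genes (87%) in N2_Cd_Zn, against 54.3% of the well expressed genes. It was 184 (92%) against 45.8% in N2_Cd, 144 (72%) against 42.4% in N2_Zn, and 175 (87.5%) against 47.2% in N2. In the basal libraries it was 133 (66.5%) against 38.6% in N0_Cd_Zn, 187 (93.5%) against 60.8% in N0_Cd, 147 (73.5%) against 28.8% in N0_Zn, and 178 (89%) against 44.9% in N0. In each of the 8 left-out libraries 0 of the 200 genes were 2-fold or more away. Of the well expressed genes 9.92% were so in N2_Cd_Zn, 15.6% in N2_Cd, 13.9% in N2_Zn, 14.0% in N2, 20.3% in N0_Cd_Zn, 8.79% in N0_Cd, 29.7% in N0_Zn and 15.4% in N0.

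In some libraries the left-out levels leaned to one side. Genes chosen without N2_Zn had a median deviation of 0.16 in it, beside 0.038 over the well expressed genes. Those chosen without N0_Cd_Zn had 0.12 in it, beside -0.062. Those chosen without N0_Zn had 0.11, beside a larger 0.14 over the well expressed genes. Those chosen without N2_Cd_Zn had -0.12 in it, beside -0.042. The genes were chosen with factors from the 7 libraries left in, and their levels were then read with factors from all 8 libraries. N2_Zn, N0_Cd_Zn and N0_Zn were also the libraries without which the fewest of the 200 genes were chosen again, at 124, 122 and 128. The farthest single gene was 0.998 away on the log2 scale, in N0_Cd_Zn.

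**Figure D4:**
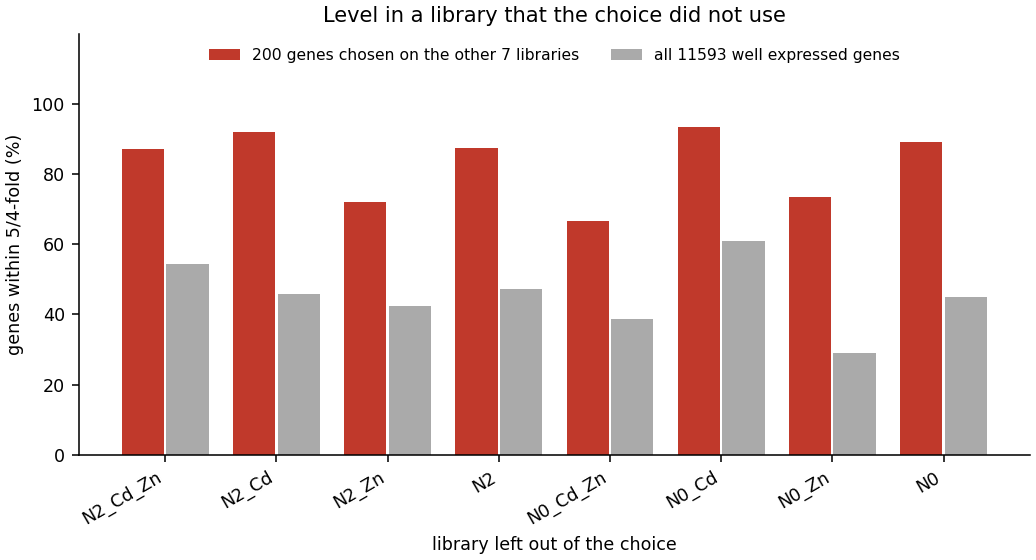
Percentage of genes within 5/4-fold of their mean in the other 7 libraries (vertical) for each left-out library (horizontal), with the 200 genes chosen on the other 7 libraries in red and all 11593 well expressed genes in grey. Red bars run from 66.5% in N0_Cd_Zn to 93.5% in N0_Cd and are above the grey bar in each library.

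Lists were also chosen at each of the 2 Ca/K levels. The 200 genes chosen by the rule on the 4 raised Ca/K libraries had a median SD of 0.053 there and of 0.22 in the 4 basal libraries, where the well expressed genes had 0.43. The 200 chosen on the 4 basal libraries had a median SD of 0.061 there and of 0.16 in the 4 raised ones, where the well expressed genes had 0.32. The SD in the level not used was below the lower quartile of the well expressed genes for 128 of the genes chosen at raised Ca/K and 134 of those chosen at basal Ca/K, and above their median for 10 and 11. Of the genes chosen at raised Ca/K 8 (beside 1.73% of the well expressed genes, or 200 of 11593), and of those chosen at basal Ca/K 12 (beside 1.73%), were among the 200 smallest SDs of the level not used, when these SDs were taken over the 11593 genes with the factors from all 8 libraries. The lists themselves shared 10 genes, which is 5% of each. They were chosen with the abundance minimum and the factors taken from their own 4 libraries, among 11728 genes at raised and 11142 at basal Ca/K. Of their genes 32 and 55 were among the 200 chosen on all 8 libraries.

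**Figure D5:**
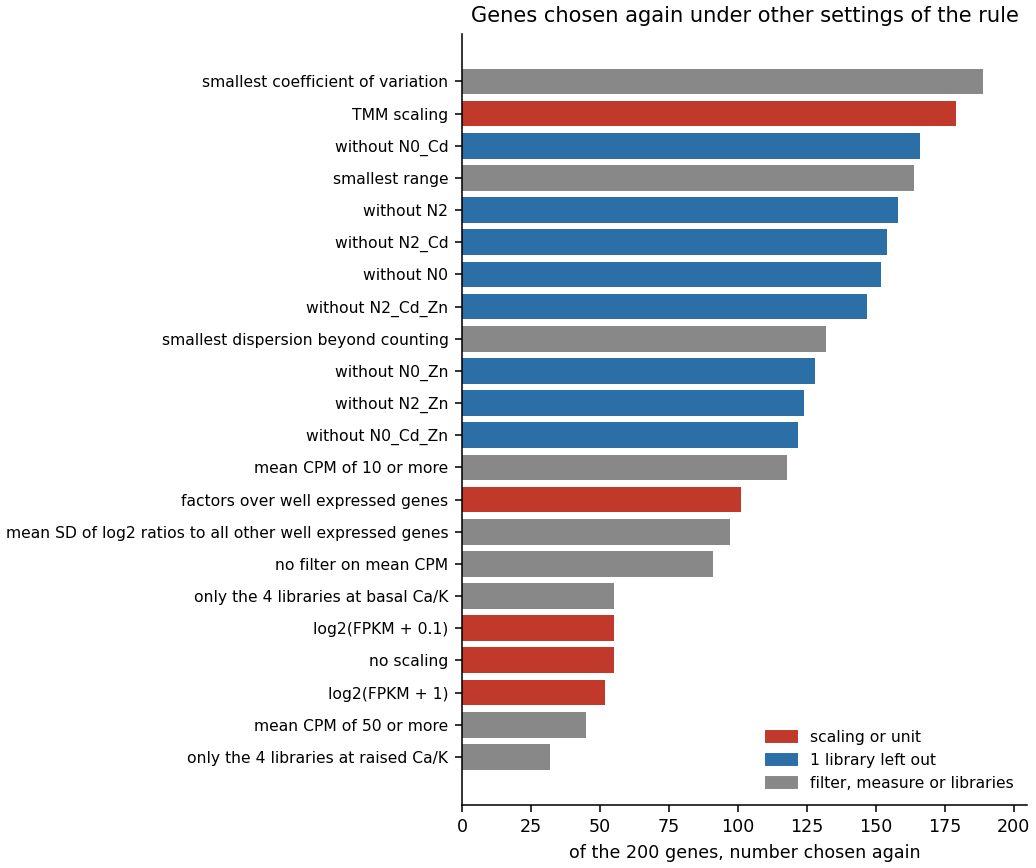
Number of the 200 genes chosen again (horizontal) when 1 setting of the rule is changed (vertical), coloured by whether the scaling or unit, a single library or another setting is changed. The count runs from 32 with only the raised Ca/K libraries to 189 with the coefficient of variation in place of the SD.

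Fewer genes were chosen under several settings alike. Under median-of-ratios, TMM and no scaling and factors from the well expressed genes, 51 of the 200 genes were chosen every time. Without each library in turn, 81 were chosen every time, including all 10 genes with the smallest SD. For these 10 genes this follows from the rule. Their SD was at most 0.081 and can rise only a little when 1 library is left out. The SD at the 200th gene was then 0.12 to 0.14. Under all 4 scalings and without each library in turn, 23 genes remained. Among the genes named above these were the 5BL gene at rank 2 (TRIAE_CS42_5BL_TGACv1_407192_AA1354220), the 3B gene at rank 6 (TRIAE_CS42_3B_TGACv1_227586_AA0823940), the 6AS gene at rank 8 (TRIAE_CS42_6AS_TGACv1_485576_AA1547910), the 6AL gene at rank 10 (TRIAE_CS42_6AL_TGACv1_472958_AA1527550) and the 2 most abundant ones, on 7BL (TRIAE_CS42_7BL_TGACv1_577272_AA1870850) and 2BS (TRIAE_CS42_2BS_TGACv1_146875_AA0474500). Novel04551, at rank 1, was not among them.

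The 200 genes were spread over the genome as the identifiers give it. Genes with an A code numbered 80 (40.0%, beside 44.6% of the well expressed genes) and those with a B code 88 (44.0%, beside 44.1%). The code U held 14 (7%, beside 3.62%) and serial numbers 17 (8.50%, beside 6.45%). All 27 arms or chromosomes of the A and B subgenomes with a well expressed gene had a member, with 3B and 5BL the most at 17 each, or 2.09% and 2.73% of their well expressed genes. By chromosome group the share of well expressed genes that were chosen ran from 1.20% in group 1 to 2.18% in group 5. The 183 members with a scaffold number lay on 183 different scaffolds.

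Of the 141 well expressed genes with a D code 1 was a member, at 0.709% beside 1.55% of A genes and 1.72% of B genes. With 200 of 11593 genes chosen in all, a count of 1 is too small to call D genes rarer among them. The D subgenome belongs to bread wheat and is lacking in tetraploid wheat, so reads given to such a gene are of unsettled origin. TRIAE_CS42_2DL_TGACv1_158454_AA0519070 on 2DL, at 5928 bp, had 27.7 in N2_Cd_Zn, 32.1 in N2_Cd, 29.9 in N2_Zn, 33.5 in N2, 30.4 in N0_Cd_Zn, 29.8 in N0_Cd, 25.9 in N0_Zn and 26.7 in N0. It was highest in N2 and lowest in N0_Zn.

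Gene length was not used by the rule. The 200 genes had a median length of 2299 bp (quartiles 1780 and 3340 bp), beside 1988 bp (1396 and 2751 bp) over the well expressed genes, and 124 of them (62.0%) exceeded 2000 bp, beside 49.5%. Members with an A, B, U or serial code had median lengths of 2257, 2286, 2843 and 1976 bp, beside 1985, 1991, 2079 and 1965 bp over well expressed genes of the same code. The deposited FPKM, which counts per length, had a median of 14.8 over the 200 genes, beside 19.5 over the well expressed genes. Genes chosen with TMM scaling, no scaling or factors from the well expressed genes had median lengths of 2327, 2364 and 2274 bp, so the greater length was common to these choices. They share 179, 55 and 101 of the 200 genes and use the same libraries, so they are not separate evidence.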

How the data were processed

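Root RNA of 8 treatments was sequenced from Illumina TruSeq libraries, per the labels' protocols; the series text names a long-read method instead. TopHat2 2.0.12 and Bowtie2 2.0.6 stand in the submitters' processing notes. The counting method, strand setting, build and annotation are in none of the sources used here. The authors deposited raw read counts, in 1 column for each treatment, and FPKM values. Each deposited FPKM follows from its count, the column total and 1 length per gene, with relative deviations up to 2.27e-14, so it adds only gene lengths. All 16 columns were matched by name to a treatment, and 0 were left out.

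The choice of genes followed the rule stated at the start, in Python 3.11.15 with numpy 2.4.6 and pandas 2.3.3; TMM factors came from edgeR 4.0.16 in R 4.3.3. Levels per length are deposited FPKM, and all other levels are scaled CPM, except those said to be without scaling. Abundance minima, abundance classes and the 200 most abundant genes were set by mean CPM before scaling. The rule was run on simulated counts of 11593 genes, where it recovered 195 of 200 seeded stable genes. The seeded genes were given a far smaller scatter than all others, with none between, unlike the measured genes. This checks that the rule works as stated, and not that the 200 genes are truly stable. No test was run, since the rule used the values; an additive fit of Cd, Zn and Ca/K over the 8 libraries was not run. Genes named in the text were the 10 with the smallest SD, the 5 most abundant, the last 2 inside and the first 2 outside the choice, the farthest gene of each library, and the steadiest gene with a D code, a U code or a serial number. The genes, lists and comparisons were chosen with earlier results of these data known. Gene lists by product description could not be used, as identifiers lack names. No gene or protein sequence was used. Library totals of 20000875 to 25241789 counts put the counting SD of the 200 genes between 0.015 and 0.068 on the log2 scale. Alternatives were other scalings, abundance minima, measures of spread and sets of libraries.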

Additional observations from a re-analysis of the deposited data

How the results depend on the processing

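Both which genes were chosen and how level they were moved with the settings. Of the 200 genes, 179 were chosen again with TMM scaling, 189 with the coefficient of variation and 164 with the range. Fewer returned with factors from well expressed genes (101), no scaling (55), a minimum of 10 CPM (118), of 50 CPM (45) or none (91), dispersion beyond counting (132), ratios to all other genes (97), log2(FPKM + 1) (52) and log2(FPKM + 0.1) (55), the raised Ca/K libraries alone (32) or the basal ones alone (55). The factors from well expressed genes and the ratios were chosen after seeing the data. Without 1 library the count ran from 122 (N0_Cd_Zn) to 166 (N0_Cd), with 124 without N2_Zn and 128 without N0_Zn, the 3 libraries that moved it by over 1.5 times.

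The SD at the 200th gene, 0.14 in the choice described, was 0.13 with TMM and with no scaling, 0.12 and 0.19 at minima of 10 and 50 CPM and 0.12 with none, where 20741, 3854 and 62270 genes were eligible instead of 11612. It ran from 0.12 to 0.14 without 1 library, with 11525 to 11711 genes eligible. All 200 genes stayed within 5/4-fold of their own mean with TMM and without any 1 library, against 182 with factors from well expressed genes and 158 with no scaling. The largest median deviation of the 200 genes in a library, 0.052, became 0.024 with TMM, 0.20 with no scaling and 0.13 with factors from well expressed genes. Differences of 2-fold or more over the 12 pairs numbered 0 under all 4 scalings. Those of 5/4-fold or more numbered 115, and 102 with TMM, 334 with no scaling and 242 with factors from well expressed genes. The largest of the 8 median absolute deviations in a left-out library was 0.24, and 0.22, 0.20 and 0.25 under these 3 scalings in the same order. The causes were not tested. Each treatment has 1 library and the groups share 1 replicate number, so there was no replicate block to pair by. The 12 matched pairs are given as values. No paired test was run on them, since the rule used these values. For 61 of the 200 genes, and for 61 of all 11593 well expressed genes, the SD was under 2 times the counting SD. The part of depth in the choice of genes was not tested.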
